A study of Drosophila melanogaster with 2 samples.

Results

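The genes of the Mediator complex and of the general transcription factors of RNA polymerase II were examined for sites occupied by a sisA-eGFP fusion protein in Drosophila melanogaster embryos. They were taken by symbol from the protein-coding genes of the annotation: symbols that begin with MED, Taf or TfII followed by a number or letter, together with kto, skd, Cdk8, CycC and Tbp. This gave 54 of 13945 protein-coding genes on the chromosome arms, of which 29 encode Mediator subunits, 16 encode TFIID subunits and 9 encode other factors. Chromatin came from whole embryos aged 0 to 18 h that carry the sisA-eGFP insertion, and it was precipitated with an anti-GFP antibody. There was 1 group with 2 biological replicates, and separate cages or collections are not stated for them. The sisA gene encodes a basic leucine zipper protein that counts among the X-linked signals of sex determination. The sex of the embryos was not collected, and a peak in whole embryos does not tell which cells it comes from.

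Mediator is a large complex that carries signals from DNA-bound activators to RNA polymerase II. Its head and middle modules contact the polymerase, its tail receives many activators, and a kinase module made of Cdk8, CycC, kto (the Med12 subunit) and skd (the Med13 subunit) binds to it reversibly. TFIID, built from the TATA-binding protein Tbp and its associated factors (Taf), recognises the core promoter. TFIIA and TFIIB then steady the complex and place the polymerase, TFIIF escorts the polymerase, and TFIIE brings in TFIIH, which opens the DNA. TFIIS acts later and helps a stalled polymerase to resume. Most of these proteins serve transcription in nearly all cells. TfIIA-S-2 and Taf12L are paralogs of TfIIA-S and Taf12.

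The strongest summits at these genes lay in AT-rich DNA. The stretches below are shown because they hold 5 of the 6 strongest summits at the 54 genes (MED27, MED17, MED30, MED7 and TfIIA-L), the summit of the kinase module gene skd, and that of Taf4, whose summit lies within 1000 bp of no other protein-coding TSS. Each runs 5′ to 3′ on the strand of its gene, from dm6 sequence (RefSeq), and reaches up to 100 bp to each side of the summit, ending where an annotated exon begins. Capitals mark 6 words, searched on both strands: the insulator core CGATA, the word ACAGTG, the word ACACTG, the promoter core CATCNCTA, the E-box CACGTG and the CRE arm TGACGT.
MED27, chr3R:5654915-5655115, plus strand: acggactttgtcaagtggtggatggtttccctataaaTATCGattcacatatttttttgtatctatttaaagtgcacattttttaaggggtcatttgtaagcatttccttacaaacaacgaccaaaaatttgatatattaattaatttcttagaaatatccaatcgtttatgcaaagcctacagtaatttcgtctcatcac
MED17, chr3R:18188849-18189049, plus strand: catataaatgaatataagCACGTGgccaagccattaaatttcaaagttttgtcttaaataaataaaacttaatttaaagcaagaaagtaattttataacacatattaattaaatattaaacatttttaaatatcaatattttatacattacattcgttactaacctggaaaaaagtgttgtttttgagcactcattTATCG
MED30, chr3L:654200-654362, minus strand: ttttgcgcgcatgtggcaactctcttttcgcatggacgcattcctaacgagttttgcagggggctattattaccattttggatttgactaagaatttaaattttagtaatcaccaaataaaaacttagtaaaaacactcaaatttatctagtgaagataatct
MED7, chr3R:10761033-10761187, minus strand: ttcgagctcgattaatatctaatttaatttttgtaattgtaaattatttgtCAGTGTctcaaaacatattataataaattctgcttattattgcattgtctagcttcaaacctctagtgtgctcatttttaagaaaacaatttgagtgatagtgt
skd, chr3L:21027749-21027914, minus strand: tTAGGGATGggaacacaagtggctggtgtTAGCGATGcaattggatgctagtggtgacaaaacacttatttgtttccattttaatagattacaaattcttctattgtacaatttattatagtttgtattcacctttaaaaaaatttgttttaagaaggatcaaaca
Taf4, chr3L:16113592-16113789, plus strand: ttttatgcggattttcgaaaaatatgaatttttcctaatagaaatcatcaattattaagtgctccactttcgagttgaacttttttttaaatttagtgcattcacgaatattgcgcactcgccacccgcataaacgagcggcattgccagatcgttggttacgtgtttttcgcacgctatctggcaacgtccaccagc
TfIIA-L, chr3R:27253183-27253356, plus strand: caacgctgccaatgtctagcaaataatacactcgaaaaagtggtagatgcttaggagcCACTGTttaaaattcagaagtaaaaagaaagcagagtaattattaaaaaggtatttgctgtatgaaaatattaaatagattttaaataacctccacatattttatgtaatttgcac

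The marked words are few. MED27 and MED17 hold a CGATA word, the core bound by the insulator protein BEAF-32, and MED17 also holds the E-box CACGTG. The CGATA word lies at -63 to -59 bp from the summit in MED27 and at 96 to 100 bp in MED17. In MED17 the E-box lies at -82 to -77 bp. The stretch at skd holds CATCNCTA at 2 places, the core of a motif found at many Drosophila promoters that lack a TATA box. MED7 and TfIIA-L each hold a CAGTG word, ACACTG in MED7 and ACAGTG in TfIIA-L, and MED30 and Taf4 hold none of the words.

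Across windows of 201 bp centred on the strongest summit of each of the 18 genes with a summit, CGATA was found in 6 (33.3%), against 32.7% of 2386 summits near protein-coding genes and 38.4% of 13945 promoter windows of the same length. CATCNCTA was found at MED7, Taf7 and skd (16.7%), against 6.33% of the promoter summits and 3.70% of promoters. ACAGTG was found in 3 windows (16.7%, against 21.0% and 9.10%), and so was ACACTG (16.7%, against 18.2% and 11.6%). Both of these words were chosen after seeing the data, so their shares are description only. The DNA replication-related element TATCGATA, which overlaps CGATA, was found in 0 of the 18 windows, against 4.69% of promoter summits and 7.39% of promoters. Within 50 bp of the summit, CGATA was found at 1 gene, MED19 (5.56%, against 17.2% of promoter summits), CATCNCTA at 1, skd (5.56%, against 2.64%), and TATAAA at 3 (16.7%, against 20.3%). In the windows of 201 bp TATAAA was found in 7 (38.9%, against 34.3% and 37.0%). The E-box CACGTG was found in 1, at MED17 (5.56%, against 2.43% and 2.23%), and in 0 within 50 bp of the summit (against 0.922% of promoter summits). Of words read by basic leucine zipper proteins, the full CRE site TGACGTCA was in 0 windows, against 0.293% of promoter summits. Its shorter form TGACGT was in 1, at Taf7 (5.56%, against 4.11%), and the AP-1 site TGANTCA in 1, at TfIIS (5.56%, against 4.23%). The C/EBP word TTGCGCAA and the PAR word TTACGTAA were in 0 windows, against 0.0838% and 0.335% of promoter summits. The windows of the 18 genes had a median GC content of 34.1% (22.4% at MED17 to 46.8% at MED6), against 49.3% in windows centred 500 bp away. Over all promoter summits the medians were 35.8% and 45.3%.

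A gene was called occupied when a summit of the conservative peak list, which the authors derived from both replicates, lay within 1000 bp of any of its transcription start sites (TSS). By this rule 18 of the 54 genes were occupied (33.3%), against 21.1% of all protein-coding genes. Among Mediator genes 11 of 29 were occupied (37.9%), among TFIID genes 4 of 16 (25.0%) and among the other factors 3 of 9 (33.3%). Within Mediator, 4 of 9 head genes, 4 of 9 middle genes, 2 of 7 tail genes and 1 of 4 kinase module genes were occupied. No test between these lists was made, and a list of 9 genes moves by 11.1 percentage points with 1 gene. In the thresholded lists of replicate 1 and replicate 2 the counts were 11 and 9 of 29 for Mediator, 3 and 3 of 16 for TFIID, and 3 and 3 of 9 for the other factors. In these lists 20.6% and 16.1% of all protein-coding genes were occupied. The genes were not all the same: MED8, MED16, MED25 and TfIIEbeta were called in replicate 1 alone, and MED19 and TfIIS in replicate 2 alone.

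**Figure D1:**
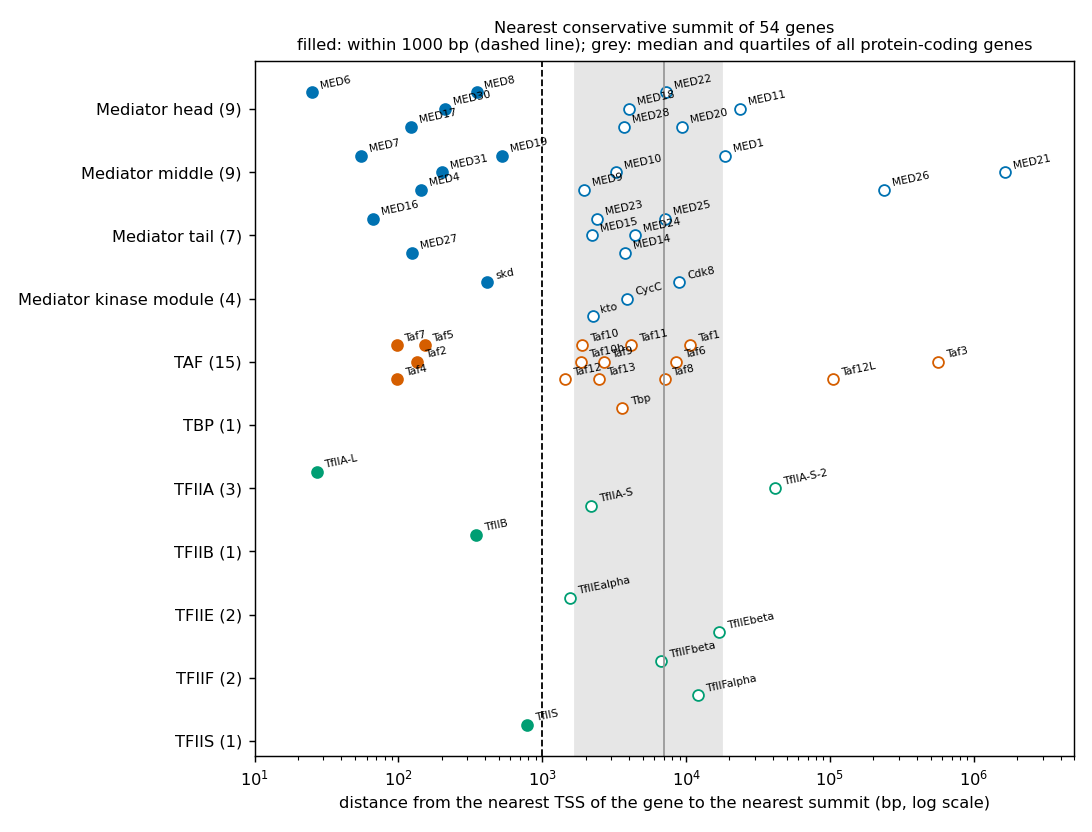
Distance in bp (log axis) from the nearest TSS of each of the 54 genes to the nearest conservative summit, by complex and module; filled points lie within 1000 bp (dashed line), and the grey line and band give the median and quartiles of all protein-coding genes. Filled points are present in all 4 Mediator modules but not at Tbp, TFIIE or TFIIF genes, and no point lies between 783 bp and 1436 bp.

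For the 54 genes the nearest summit was at a median of 2440 bp (quartiles 348 and 7188 bp), against 7026 bp for all protein-coding genes (1678 and 17701 bp). Beyond the 18 occupied genes, 5 had their nearest summit past 1000 and up to 2000 bp (9.26%, against 5.84% of all genes) and 14 past 2000 and up to 5000 bp (25.9%, against 14.6%). Only 10 of the 54 lay farther than 10000 bp from a summit (18.5%, against 40.4%). The occupied gene nearest to the limit was TfIIS at 783 bp, and the nearest gene past it was Taf12 at 1436 bp.

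The signals at the occupied genes spanned 66.1 to 688, in the authors' peak units, which were used only within a list. Their median was 185 (quartiles 114 and 313), against 172 for all occupied protein-coding genes (106 and 305). Of the 18, 12 (66.7%) were above the list's median of 128, against 65.3% of all occupied genes. The medians were 222 for Mediator, 185 for TFIID and 120 for the other factors.

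In the Mediator head, MED17, a scaffold of the module, had a signal of 379, from 211 in replicate 1 and 163 in replicate 2. MED30, a subunit of animal Mediator, had 361, with 194 and 177 in the replicates. MED6 had 145, with 84.3 and 53.3. MED8 had 112, with 69.0 and 46.4, and its peak was in the thresholded list of replicate 1 but only in the ranked list of replicate 2. The head genes without a summit were MED18, MED28, MED22, MED20 and MED11, at 3705 to 23647 bp from the nearest.

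In the middle module, MED7 reached 314, with 176 and 137 in the replicates, and MED4 reached 222, with 109 and 113. Both encode core subunits of the module. MED31 had 176 (124 and 58.7), and its replicate 1 value was 2.11 times its replicate 2 value, the largest such ratio of the 18, although the scales of the 2 lists need not match. MED19 was the weakest of all at 66.1, with 28.3 and 43.9, and passed the threshold in replicate 2 alone. MED9, MED10, MED1, MED26 and MED21 had no summit within reach, and MED26 (on chromosome 4) and MED21 were farthest, at 238293 and 1653528 bp.

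The tail gene MED27 had the highest signal of all 54 genes, 688, from 381 in replicate 1 and 309 in replicate 2. Only 3.49% of the conservative list was stronger. MED16 had 80.1, with 44.9 and 44.2 and a thresholded peak in replicate 1 alone. Of the kinase module, skd had 243, with 110 and 130. Its partners lay outside the limit: kto had its nearest summit at 2235 bp, 75 bp from the TSS of trc, CycC at 3883 bp and Cdk8, the kinase, at 8960 bp.

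Among TFIID genes Taf5, which encodes a core scaffold subunit, had the highest signal, 430, with 265 and 157 in the replicates. Taf4, another core subunit, had 192 (114 and 70.2), and Taf2, which contacts the initiator, had 177 (83.5 and 85.7). Taf7, a partner of Taf1, had 74.7 (35.9 and 39.0), with peaks in the ranked lists of both replicates but in neither thresholded list. Tbp, the DNA-binding subunit, was 3595 bp from a summit, and Taf1, the largest scaffold, 10696 bp. The histone-fold genes Taf6 and Taf9, whose products pair, lay 8469 bp and 2668 bp away, and Taf3, on chromosome 4, lay 560443 bp away.

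Of the other factors, TfIIA-L, which encodes the large TFIIA precursor, had 308, with 172 and 135. It also had a second summit 27 bp downstream of a TSS with a signal of 10.9. TfIIB had 120 (54.0 and 63.0). TfIIS had 76.7 (34.1 and 38.8), from ranked peaks only, and a separate peak of 30.0 within 1000 bp was in replicate 2's thresholded list. Neither TFIIE gene nor TFIIF gene was occupied.

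**Figure D2:**
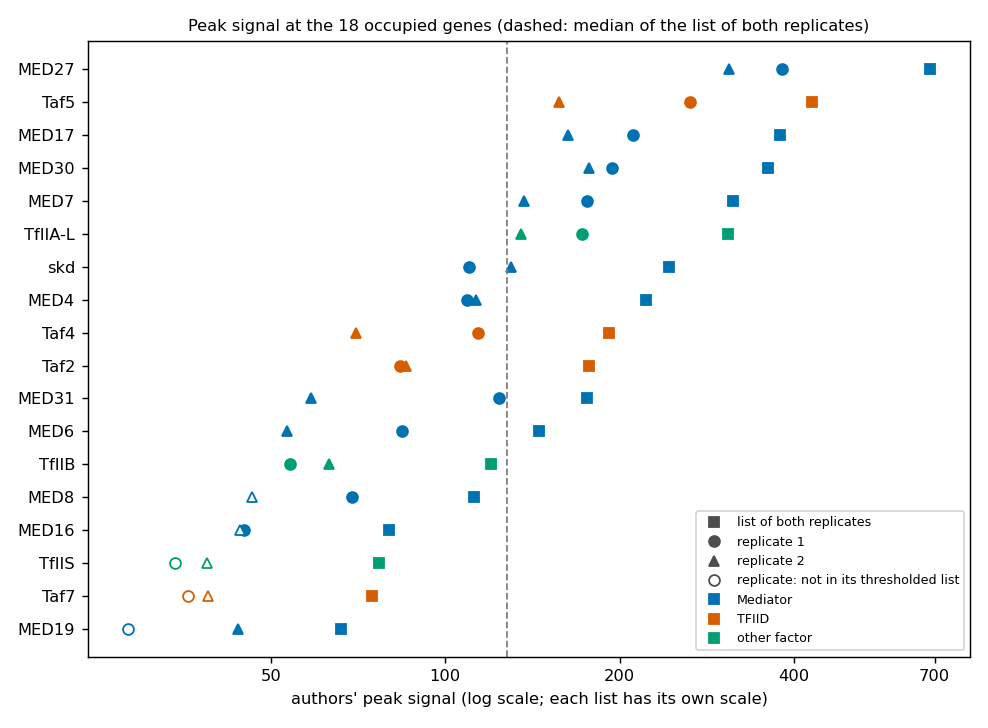
Signal of the strongest summit within 1000 bp of a TSS of each occupied gene (log axis, authors' units) in the list of both replicates and in each replicate, with separate markers for peaks present only in a ranked list. MED27 is highest at 688 and MED19 lowest at 66.1, and the peaks present only in ranked lists all belong to genes with a signal of 112 or less.

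The conservative list keeps peaks whose ranks agree between the replicates, so the values that follow describe the listed sites and are no independent check of them. All 18 summits had a match within 100 bp in both replicates, with median offsets of 15.0 and 9.5 bp, and the signals had a Spearman rho of 0.924 across the 18 genes, which are not independent replicates. Over the 2273 promoter summits matched in both, of 2386, rho was 0.902. Replicate 1 was higher at 11 of the 18 genes, with a median ratio of 1.16, against 1.21 over the promoter summits. Thresholded peaks matched 15 of the 18 summits in replicate 1, 14 in replicate 2 and 13 in both.

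Most summits lay upstream of the nearest start site and were shared with a neighbour. In the annotation 11 lay between genes, 4 in introns and 3 in 5' UTRs, and the same split over all promoter summits was not computed. Relative to the nearest TSS of its gene, the strongest summit was upstream at all 18 (100%, against 83.6% of all occupied genes), at a median position of -148 bp, against -144 bp for all occupied genes. At MED6, Taf4, Taf7 and TfIIA-L, which have 2 to 5 start sites, that summit lay downstream of the gene's first start site. Of the 18, 16 (88.9%) were also within 1000 bp of a TSS of another protein-coding gene, against 60.8%, and the same 16 lay at a gene read in the opposite direction with start sites facing away, against 55.9%. MED4 and Taf4 had their summits to themselves. In the whole list of 54, 39 genes (72.2%) had another TSS within 1000 bp, against 42.9% of protein-coding genes. Of those 39, 17 were occupied (43.6%, against 32.2% of such genes), and of the 15 with no neighbour 1 was (6.67%, against 12.7%).

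The start sites of the 16 pairs were 19 to 899 bp apart, with a median of 278 bp, and 14 pairs were within 500 bp. MED27 faces elm across 278 bp, with the summit 124 bp from MED27 and 154 bp from elm. Taf5 faces Pex6 (301 bp), MED17 faces CG12321 (365 bp), MED30 faces Rev1 (274 bp), MED7 faces Cap-H2 (278 bp) and TfIIA-L faces pll, the kinase Pelle (248 bp). skd faces Pdss2 across 481 bp, and its summit is 415 bp from skd but 66 bp from Pdss2. TfIIB and Bug22 are 420 bp apart, MED8 and CG8929 464 bp, MED16 and CG11170 259 bp, Taf7 and EMC1 275 bp, MED19 and CG7430 535 bp, and TfIIS and the pair solo and vas 899 bp. The shortest intervals were 19 bp between MED6 and Naa80, 79 bp between Taf2 and CalpB, and 125 bp between MED31 and CG9775. The start site of MED31 is also that of slx1, on the same strand (0 bp apart), so 3 genes share that summit. At 11 of the 16 pairs the summit was closer to the neighbour than to the factor gene. The same share over all such pairs was not computed, so this count is not read as particular to these genes.

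**Figure D3:**
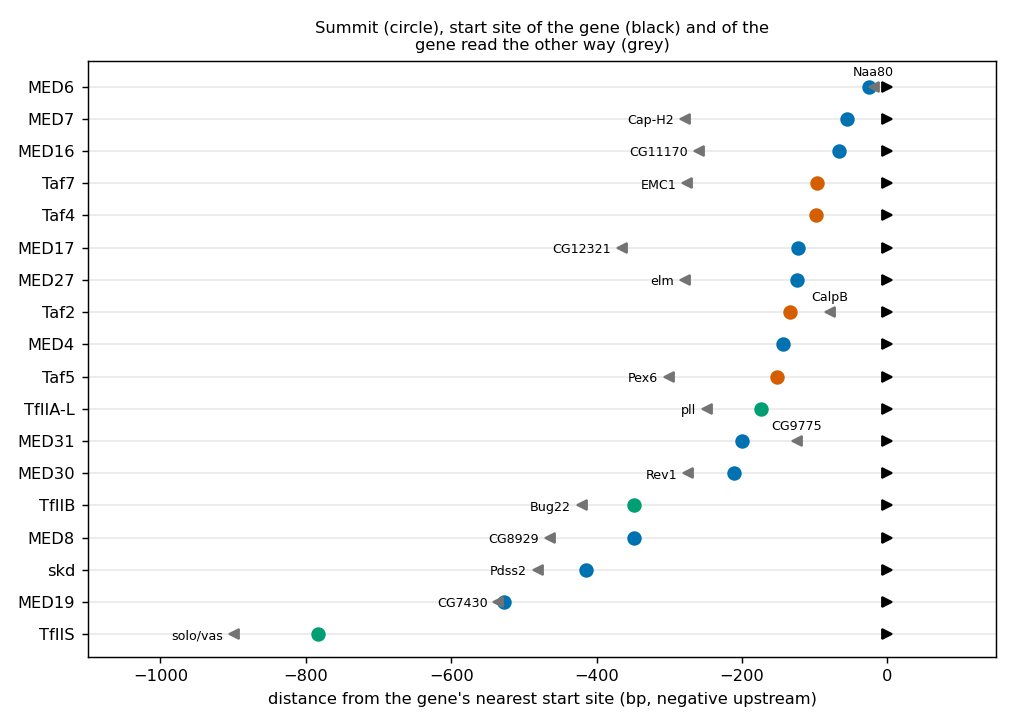
Position in bp of the strongest summit (circle) relative to the nearest TSS (black) of each occupied gene, and the start site of the gene read the opposite way (grey, named); colours are Mediator blue, TFIID orange and other factors green. Summits lie between the 2 start sites at most pairs, and closer to the neighbour than to the factor gene at 11 of the 16. The same share over all such pairs was not computed.

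The count depends on which gene a shared summit is given to. Giving each summit only to the gene with the nearest TSS left 8 of the 54 genes (14.8%), against 15.2% of all protein-coding genes. The 10 genes lost were MED6, MED8, MED19, MED30, MED31, skd, Taf2, Taf5, TfIIB and TfIIS. By their strongest summit, 7 of the 18 (38.9%) were the nearest gene, against 69.7% of all occupied genes, and TfIIA-L was kept through its second, weak summit. These 2 shares are not on equal terms. A gene with an unshared summit is always the nearest, and 88.9% of the 18 had a shared summit, against 60.8% of all occupied genes. The shares among shared summits alone were not computed. A summit between 2 start sites cannot be given to one of the genes from these lists. The other ways of calling occupancy left the 54 genes above all protein-coding genes. Within 500 bp the share was 29.6% against 17.8%, within 2000 bp 42.6% against 26.9%, in the authors' longer list of both replicates 37.0% against 22.3%, and among peaks past the list median in signal (stronger peaks) 22.2% against 13.8%. In the lists of replicate 1 and 2 it was 31.5% against 20.6% and 27.8% against 16.1%, with a single TSS per gene 29.6% against 19.2%, and with ranked peaks at a score of 830 or more 37.0% against 21.5%.

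**Figure D4:**
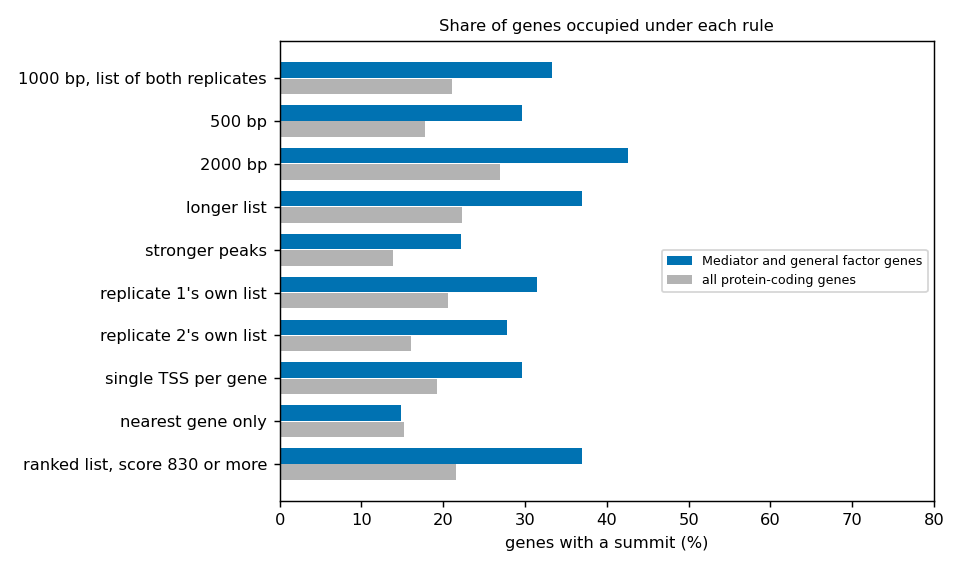
Percent of the 54 genes and of all protein-coding genes called occupied under each way of calling (x axis in percent). The 54 genes are higher under every rule shown except the nearest gene rule, where 14.8% stands beside 15.2%.

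Of the 36 unoccupied genes, 22 had another TSS within 1000 bp, against 42.9% of all protein-coding genes, occupied or not. For 20 of the 36 the nearest summit was within 200 bp of another gene's TSS. The share of all unoccupied genes was computed for neither count, so neither is read as particular to these genes. Taf10 and Taf10b, paralogs that form a divergent pair, lay 1893 and 1848 bp from a summit with a signal of 361, which was 236 bp from aph-1. Neither had a ranked peak within 1000 bp in replicate 1, and the values in replicate 2 were 17.4 and 13.7. MED9 at 1959 bp had ranked peaks of 18.2 and 23.0, Taf12 at 1436 bp had 19.3 and 28.5, and TfIIEalpha at 1548 bp had 17.9 and 13.4. Over the 11501 and 11255 protein-coding genes with a ranked peak within 1000 bp, the median of the strongest was 22.6 in replicate 1 and 23.0 in replicate 2. Of these 5 genes Taf12 was above it in replicate 2 and MED9 was level with it there. Taf6 lay 8469 bp from a summit of 3270 near CG14100.

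Of the 36 unoccupied genes, MED15 and TfIIA-S had strong peaks that the thresholded lists leave out. At MED15, a tail subunit that many activators contact, a ranked peak at chr2L:472376-472596 had its summit at -545 bp from the TSS, a signal of 418 in the list of both replicates, and 211 and 201 in the replicates, each with a score of 1000. At TfIIA-S, the small TFIIA subunit, the peak at chr3R:23891039-23891180 had its summit at -40 bp, with 272, and 147 and 126 in the replicates, each with a score of 1000. Both are stronger than the median signal of the 18 occupied genes, and no thresholded list held a peak overlapping either. On the arms, 132 of 5265 ranked peaks with a score of 830 or more were not in the conservative list. Per the file listings, the thresholded lists had an input that the ranked lists did not, and what removed these peaks was not tested. The other 34 unoccupied genes had ranked signals of 6.28 to 44.9 in replicate 1, with a median of 18.3 over 25 genes with a peak, and 8.03 to 34.7 in replicate 2, with a median of 20.4 over 26 genes. TfIIEbeta and MED25 had a peak in the thresholded list of replicate 1 alone (44.9 and 39.3), and TfIIEbeta (69.4) and Taf8 (57.3) were in the longer list of both replicates.

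None of the 5 genes on X was occupied (MED18, MED22, Taf8, Taf9 and TfIIA-S-2), against 22.3% of all protein-coding genes on X, and neither of the 2 on chromosome 4, where 1.25% of genes are occupied. The counts on the other arms were 2 of 9 on 2L, 3 of 6 on 2R, 6 of 17 on 3L and 7 of 15 on 3R, where 19.1%, 21.0%, 22.5% and 21.3% of all protein-coding genes are occupied.

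Other genes of the transcription machinery that the symbol rule leaves out were examined by lists chosen with earlier results of these data known. Of 43 genes, 19 were occupied (44.2%, against 21.1% of all protein-coding genes). Of the 19 summits, 17 (89.5%, against 60.8% of all occupied genes) were also within 1000 bp of a TSS of another protein-coding gene. In this list 30 genes (69.8%) had another TSS within 1000 bp, against 42.9% of protein-coding genes. Of those 30, 17 were occupied (56.7%, against 32.2% of such genes), and of the 13 with no neighbour 2 were (15.4%, against 12.7%). For TFIIH, which opens the promoter, 5 of 10 were occupied: Ssl1, with a signal of 2310 at a summit shared with Chro, mrn (216), Xpd (193), Tfb5 (140) and CycH (74.4). Among subunits of RNA polymerase II 5 of 12 were occupied, Polr2H (698), Polr2B (446), Polr2J (372), Polr2F (324) and the largest subunit Polr2A (106). Of the early elongation factors 5 of 8 were: TH1 (547), Nelf-E (208), Spt6 (201), Nelf-A (190) and spt4 (72.1). Of the TBP-related and TBP-regulating genes 2 of 6 were occupied, NC2alpha (680) and Brf (649), and of the RNA polymerase I genes TAF1B (127) and TAF1C-like (169) both were. The 4 testis-specific TAF genes of these lists, can, mia, nht and sa, had no summit within 1000 bp, and neither had ix, the Med29 gene. Another testis TAF gene, Taf12L (rye), was counted among the 16 TFIID genes and was unoccupied, with its nearest summit at 104828 bp. Under the nearest gene rule the count of this wider list was 10 of 43 (23.3%, against 15.2%).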

How the data were processed

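The deposited files were peak lists on dm6 from the anti-GFP precipitation of 2 replicates, with chromatin sonicated to 200 to 800 bp per the labels. Per the file listings the authors derived the conservative list of 5202 peaks, the longer list and 1 ranked list from both replicates, and a thresholded and a ranked list from each replicate. Peak signal is a value deposited by the authors, with no stated normalization. The deposited score is a whole number from the irreproducible discovery rate, and thresholded peaks start at 830, the score of a rate of 0.01. The peak caller and aligner, not given in the sources used here, could affect which sites are listed. Control libraries were not used here and read depth is unknown, so no interval was computed.

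Genes and start sites came from Ensembl release 115 (BDGP 6.54), and sequence from the RefSeq copy of the same assembly. Coordinates are 1-based. Peaks off the arms were left out. Symbols were matched by exact case, so the polymerase I genes TAF1B and TAF1C-like were not counted. Module names follow the usual placement of each subunit. Motifs were searched on both strands within 100 bp of a summit, and the words CGATAG and ACAGTG, the word ACACTG, and the ranked list at a score of 830 were chosen after seeing the data. The distance routine, but not the motif search, was tested on simulated data. Members, lists and rules were chosen with earlier results of these data known, and every occupied gene is named. No test was run: there is 1 group and genes are not replicates. Of the related symbols, 3 were matched by an alias, and 1 (Nelf-B) had no match and was not used. The tools were numpy 2.4.6 and pandas 2.3.3 for tables, scipy 1.17.1 for rank correlation and matplotlib 3.10.9 for plots, under Python 3.11.15.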

Additional observations from a re-analysis of the deposited data

How the results depend on the processing

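Giving each summit only to its nearest gene left 8 of the 54 genes, 5 Mediator, 2 TFIID and 1 other factor gene, with a median signal of 207, and 10 of the wider list. The shares were 17.2% for Mediator, 12.5% for TFIID, 11.1% for the other factors and 23.3% for the wider list, against 15.2% of all protein-coding genes. A distance of 2000 bp raised TFIID to 7 of 16 (43.8%), and all protein-coding genes from 21.1% to 26.9%. Taf10 and Taf10b, both gained by this rule, reached the same summit, which was nearest to aph-1. The median signal over all occupied members was 192 at 2000 bp and 207 at 500 bp. The stronger peaks left 1 of 9 other factor genes (11.1%, against 13.8% of all protein-coding genes) and a median of 276. The longer list gave 176, and ranked peaks at a score of 830 or more, chosen after seeing the data, gave 207. With 1 replicate left out the counts were 15 to 17 for the 54 genes, 9 to 11 for Mediator, 3 for TFIID, 3 for the other factors and 17 to 18 for the wider list, and the median signal, on another list's scale, was 110 to 113. In these lists 16.1% to 20.6% of all protein-coding genes were occupied. MED17, MED27, MED30, MED31, MED4, MED7, Taf2, Taf4, Taf5 and skd were occupied under all settings other than the nearest gene rule, and MED17, MED27, MED4, MED7 and Taf4 under that rule too. No paired analysis was possible because there is 1 group. Read depth is unknown, control libraries were not used here, and genes without a peak may hold sites too weak to be listed.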
